A study of Mus musculus with 8 samples.

Results

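CD8+ T cells were compared with CD4+ T cells that had been sorted from the same inflamed organ, the kidney of MRL/lpr lupus mice. The comparison used 4 of the 8 libraries of the series, 2 per cell type. It covered 10080 of the 13341 genes in the table, those whose level reached 10 or more in 2 or more of these 4 libraries. A level is the deposited read count after division by 1 size factor for the library. Both groups came from MRL/lpr mice aged 14 weeks, and both were gated on high surface CD44, a protein that marks T cells that have met antigen. MRL/lpr is an inbred strain with the lpr mutation of the Fas death receptor gene, and its mice develop autoantibodies and nephritis that resemble lupus. The mutation is shared by every group, and mice without it were not analysed here. The other 4 libraries were CD44-high CD4+ and CD8+ T cells from spleen of the same strain and age, 2 each, and are used below for the same cell type difference in another organ.

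The CD4 and CD8 proteins are coreceptors that fix which class of antigen-presenting molecule a T cell reads, class II for CD4 and class I for CD8. Most CD4+ cells act through cytokines and costimulatory ligands, and a subset marked by Foxp3 restrains immune responses. Most CD8+ cells that have met antigen carry granules with granzymes and perforin, and many take up receptors first described on natural killer (NK) cells. Both types enter the kidney in lupus nephritis.

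The libraries held 8880902 and 7483737 reads for kidney CD4+ replicates 1 and 2 and 9215384 and 9707761 for kidney CD8+ replicates 1 and 2. The kidney CD4+ replicates were unlike each other. Over 4691 genes whose mean level was 100 or more, replicates differed on the log2 scale with an SD of 1.56 for kidney CD4+ cells, 0.650 for kidney CD8+ cells, and 0.452 and 0.435 for the CD4+ and CD8+ cells of spleen. The 2 kidney CD4+ libraries differed by more than 4-fold for 2508 genes, of which 1741 were higher in replicate 1 and 767 in replicate 2. The same count was 1277 for the kidney CD8+ libraries. Levels are therefore given for both kidney CD4+ libraries, and list medians also against each of them. Nothing in the labels says that the replicates came from separate mice, so the p-values measure only the spread between these libraries, which may be technical.

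The sort markers followed the labels. Cd4 had levels of 2224 and 1686 in kidney CD4+ replicates 1 and 2 against 17.8 and 16.96 in kidney CD8+ replicates 1 and 2, and this order of libraries is kept throughout. Cd8a, 1 of the 2 chains of CD8, had levels of 103 and 5.20 against 18302 and 18556, and Cd8b1, the other chain, had 62.0 and 43.7 against 13255 and 16928. Cd8a was 19.8 times as high in CD4+ replicate 1 as in replicate 2, and both lay far below either CD8+ library. The 3 further marker genes of the labelled types, Tnfrsf4 for CD4+ cells and Gzma and Klrc1 for CD8+ cells, also separated the groups and are described below. In bulk RNA, a lower level can mean fewer cells with a transcript or less transcript per cell, and these cannot be told apart here.

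In all, 13 genes were higher in kidney CD8+ than in kidney CD4+ cells and 9 were lower at an adjusted p below 0.05 (limma on log2(level + 1) over all 8 libraries, Benjamini-Hochberg adjustment). These are 0.129% and 0.0893% of the 10080 genes, 0.218% together, and such genes are said below to be called. The higher genes were the coreceptor chains Cd8a and Cd8b1, the granzymes Gzma and Gzmb, the NK-type receptors Klrc1, Klrc3, Klrk1, Klra5, Cd160 and Cd244, and Cd7, Qpct and Dcaf4. The lower genes were Cd4, the costimulatory genes Tnfrsf4 and Tnfsf8, the regulatory T cell genes Foxp3, Lrrc32, Izumo1r and Nrp1, and Cd9 and Angptl2. For each of these 22 genes both CD8+ libraries lay on the same side of both CD4+ libraries. At an unadjusted p below 0.05 there were 383 higher and 464 lower genes. The median log2 difference over all 10080 genes was 0.04.

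**Figure D1:**
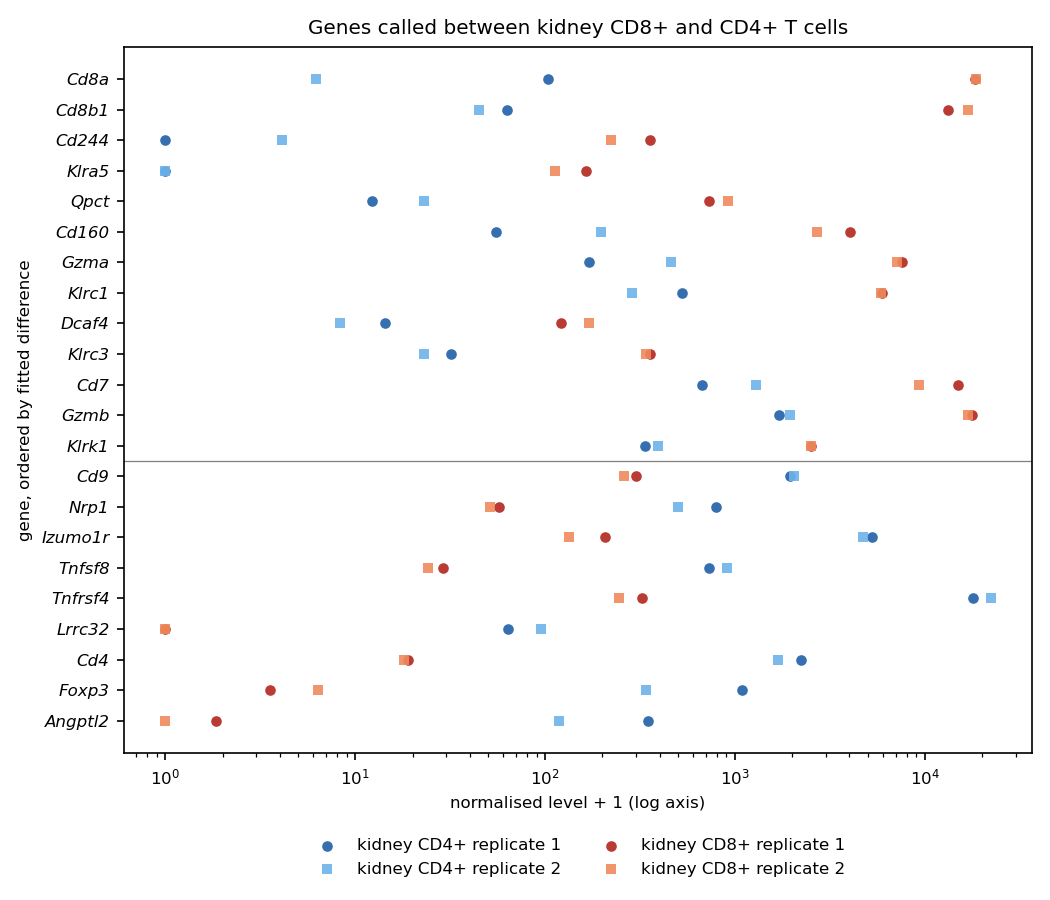
Normalised level + 1 on a log axis of each called gene in the 4 kidney libraries, ordered by fitted log2 difference, with genes higher in CD8+ cells above the grey line. Points are single libraries, blue for CD4+ and red for CD8+, and for every gene both CD8+ points lie on the same side of both CD4+ points.

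The number of calls depended on how the spread was estimated. The fit shares 1 spread per gene over the 4 groups, and since the kidney CD4+ replicates differed more than the other pairs, its standard errors (SE) can be too small here. When the 4 kidney libraries were fitted alone, 1 gene was higher, Cd8b1, and 2 were lower, Cd4 and Tnfrsf4. Read-count tests on all 8 libraries called 14 higher and 10 lower genes with edgeR and 87 higher and 115 lower with DESeq2. Leaving out kidney CD4+ replicate 1 gave 1005 higher and 188 lower genes, and leaving out replicate 2 gave 710 higher and 652 lower. Between these 2 fits, 78 genes were called higher in both, 55 lower in both, and 156 in opposite directions. All 22 genes kept their direction when either kidney CD4+ library was left out, which was fixed in advance because their groups did not overlap. With 1 kidney CD4+ library that group adds nothing to the spread. These 2 fits therefore do not test whether a gene keeps its call. Few kept it when a library of another group was left out: 3 and 5 of the 22 without kidney CD8+ replicate 1 or 2, and 4 to 9 without 1 of the spleen libraries.

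By the plain criterion that both libraries of one type lie above both of the other, 1419 genes (14.1% of 10080) were higher in CD8+ cells and 1417 (14.1%) were lower, 28.1% together. These shares are the background against which the gene groups below are read. For the remaining 7244 genes the libraries of the 2 types overlapped. A gene that reached 10 only in the 2 libraries of a single type passed the filter through that type. Its direction and lack of overlap were therefore fixed in advance. The lists below, also those of other cells, include such genes, among them Klra5, Cd244, Foxp3, Lrrc32 and Csf1r, in their counts and medians.

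**Figure D2:**
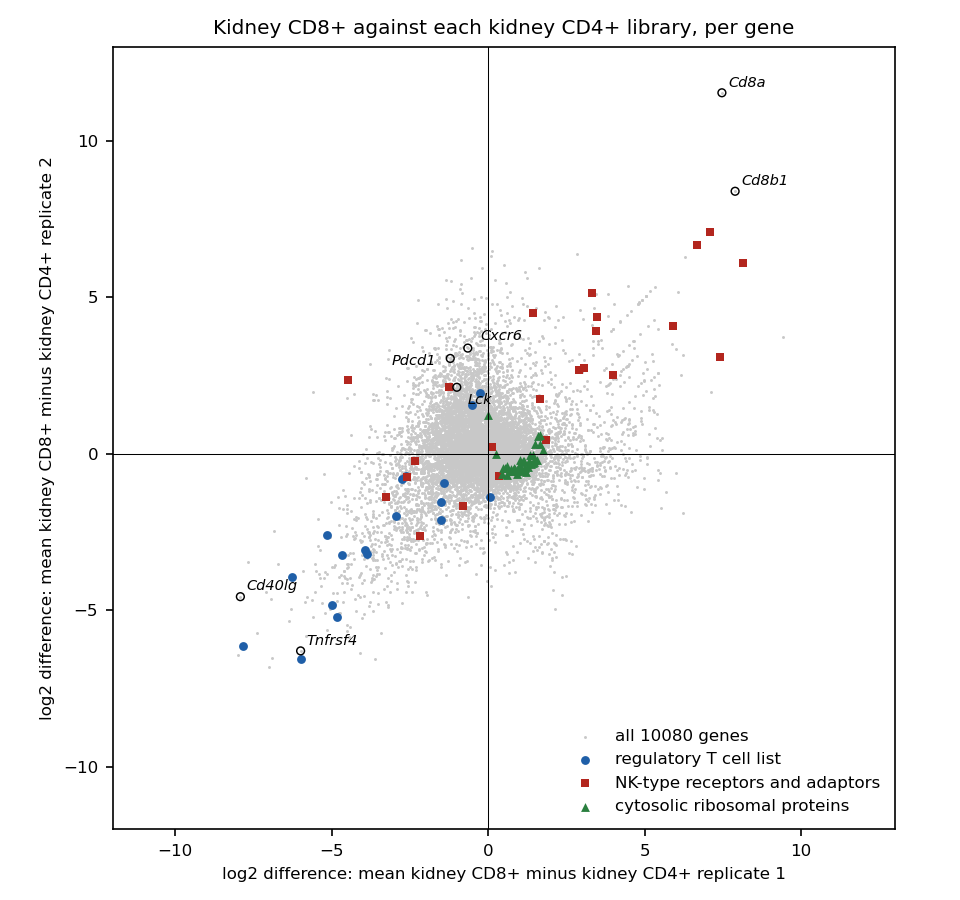
Log2 difference between the mean of the kidney CD8+ libraries and kidney CD4+ replicate 1 (horizontal) or replicate 2 (vertical), 1 point per gene. Regulatory T cell genes lie mostly below 0 on both axes, a part of the NK-type receptor genes lies above 0 on both, ribosomal protein genes are mostly above 0 against replicate 1 and just below 0 against replicate 2, and Pdcd1, Cxcr6 and Lck lie below 0 against replicate 1 and above 0 against replicate 2.

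Among 24 measured coreceptors and lineage regulators (of 26 listed), 2 were called higher and 1 lower, and 5 higher and 8 lower genes had groups that did not overlap. Cd8b1 was the gene with the smallest adjusted p, with a log2 difference of 8.14 ± 0.36 (SE, adjusted p = 6.92e-05). Cd8a differed by 9.50 ± 1.06 (adjusted p = 0.0115) and Cd4 by -6.72 ± 0.70 (adjusted p = 0.0102). In the mm9 build Cd8b1 spans chr6:71272830-71287471 and Cd8a spans chr6:71323421-71329165, and the genes are close neighbours on chromosome 6. Zbtb7b, which encodes the factor ThPOK that commits T cells to the CD4 lineage, had levels of 121 and 117 against 0 and 13.9. The groups did not overlap, but the fit gave an adjusted p of 0.287, with 1 CD8+ library at 0.

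Runx3, the factor that commits T cells to the CD8 lineage, did not separate the types in kidney, with levels of 1073 and 1509 against 1387 and 1261 and a log2 difference of 0.06 ± 0.35. Its relative Runx1 had 65.5 and 63.5 against 23.8 and 20.04. Eomes, a T-box factor of effector and memory CD8+ cells, had 252 and 248 against 716 and 534, 2.5-fold higher by means and not called (adjusted p = 0.287). Maf, a factor of several helper subsets, ran the other way at 1588 and 1061 against 335 and 178 (adjusted p = 0.0926). Tcf7, a factor of memory T cells, had 1002 and 587 against 337 and 475 and Id2, a factor of effector cells, had 18323 and 19601 against 17463 and 14309.8. Both CD8+ libraries were lower for these 2 genes, by a small margin for Id2.

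Of 19 measured cytotoxic granule genes (of 25 listed), 2 were called higher and 0 lower, and 9 against 0 had groups that did not overlap. Their median log2 difference was 1.26, beside 0.04 over all genes. It was 0.63 against CD4+ replicate 1 alone and 1.32 against replicate 2 alone, where the medians over all genes were -0.18 and 0.06. Gzma, a tryptase-like granzyme, had levels of 169 and 458 against 7534 and 7103, and Gzmb, the granzyme that cleaves caspases, had 1705 and 1939.7 against 17598 and 16917. Gzma was 23.3-fold higher in CD8+ cells by group means (log2 difference 4.71 ± 0.48, adjusted p = 0.0101) and Gzmb 9.47-fold higher (3.25 ± 0.34, adjusted p = 0.0107). For both granzymes either CD8+ library was far above either CD4+ library.

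The other granule genes were not called. Gzmk had levels of 1477 and 2311 against 6039 and 5481, a log2 difference of 1.64 ± 0.37 (adjusted p = 0.18). Gzmm had 0 and 51.0 against 587 and 791, with no read in CD4+ replicate 1 (adjusted p = 0.173). Ctsw, a cathepsin of cytotoxic cells, had 8213 and 10741 against 22841 and 26872. For these 3 genes the CD8+ pair was above the CD4+ pair. Prf1, the pore-forming protein that lets granzymes into target cells, had 635 and 69.7 against 566 and 1176, and Fasl, the ligand of the Fas receptor, had 5328 and 638 against 5465 and 4512. Here CD4+ replicate 1 was at or near the CD8+ level and replicate 2 far below it, so the groups overlapped. Nkg7, a granule membrane protein, had 44115 and 126627 against 182899 and 144741, and Srgn, the proteoglycan that packs granzymes, had 23792 and 45616 against 25824 and 23659.8. The CD4+ library nearer to the CD8+ pair was replicate 2 for Nkg7 and replicate 1 for Srgn, and the groups overlapped for Srgn. Serpinb6b, a serpin, had 629 and 210.2 against 1021 and 1039 and did not overlap.

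NK-type receptors and their adaptors had the largest share of members above without overlap among the 23 gene lists other than markers of other cells. Of 23 measured genes (of 33 listed), 6 were called higher and 0 lower, 14 were above and 4 below without overlap, and the median log2 difference was 2.79 (1.85 and 2.52 against CD4+ replicates 1 and 2 alone). Klrc1, the inhibitory receptor NKG2A, had levels of 526 and 284 against 5903 and 5835 (14.5-fold by means, log2 difference 3.92 ± 0.38, adjusted p = 0.00754). Its partner chain Klrd1, or CD94, had 178 and 496 against 3129 and 2616 and missed the threshold at an adjusted p of 0.0549. Klrc3, a relative of Klrc1, had 31.0 and 21.9 against 356 and 338 (adjusted p = 0.0494). All 3 genes had CD8+ libraries that lay close together, while the CD4+ pair differed most for Klrd1.

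Klrk1, the activating receptor NKG2D, had 335 and 391 against 2499.7 and 2508 (log2 difference 2.79 ± 0.33, adjusted p = 0.0145). Its signalling adaptor Hcst, or DAP10, had 1822 and 4809.6 against 7250.5 and 5940.4, with CD4+ replicate 2 closer to the CD8+ pair than to replicate 1. Klra5, a Ly49 receptor, had no read in either CD4+ library and levels of 163 and 111 in the CD8+ libraries, which makes it at least 108-fold higher against a floor of 3 reads over both CD4+ libraries (adjusted p = 0.0115). Klra7, another Ly49 receptor, also had no CD4+ read and had levels of 192 and 54.0, at least 94.9-fold higher, but was not called (adjusted p = 0.0751). Floors and intervals of this kind cover counting error only, as the reads carry no molecular identifiers.

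In the mm9 build Klrd1 (chr6:129541800-129548793), Klrk1 (chr6:129560341-129573882), Klrc3 (chr6:129588711-129593355), Klrc1 (chr6:129616033-129628991) and Klra5 (chr6:129849014-129867668) lie in order on chromosome 6, in the NK gene complex. These genes have close copies whose reads the counting may have split, so single values of the Klra and Klrc genes are uncertain. Cd160, a receptor for the TNF family protein HVEM, had 54.3 and 195 against 4000.4 and 2699.6 (log2 difference 4.98 ± 0.56, adjusted p = 0.012). Cd244, the SLAM family receptor 2B4, had 0 and 3.12 against 355 and 222, with 3 reads in the CD4+ libraries together and a ratio of 226 (95% exact interval 77.1 to 1099.7, counting error only, adjusted p = 0.0185). Crtam, an adhesion receptor of cytotoxic cells, had 262 and 30.2 against 539.8 and 926 and was not called. For each of these 3 genes the CD4+ libraries lay below both CD8+ libraries.

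Receptors that define NK cells themselves did not follow the CD8+ label. Ncr1, or NKp46, had levels of 113 and 0 against 24.6 and 0, and Klrb1c, or NK1.1, had 57.1 and 12.5 against 5.09 and 20.8. The highest level of both was in CD4+ replicate 1, and the groups overlapped for both. Ncr1 was added to the genes described after its values had been seen.

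To show the sequence in front of the called genes, the 250 bases before the RefSeq start site are printed for 4 genes higher in CD8+ cells, chosen among those whose stretch holds the letters marked, and for Tnfrsf4, the lower gene with the smallest adjusted p. Capitals mark the letters TGTGGT, the core that RUNX factors bind, or ACCACA, the same core on the other strand. All are written 5′ to 3′ on the gene's strand and come from RefSeq on build GRCm38.p6, whose coordinates differ from those of mm9. The Gzma stretch is chr13:113100982-113101231 on the minus strand, Gzmb chr14:56262335-56262584 on the minus strand, Klrc1 chr6:129678974-129679223 on the minus strand, Klrk1 chr6:129623865-129624114 on the minus strand and Tnfrsf4 chr4:156013445-156013694 on the plus strand.
Gzma: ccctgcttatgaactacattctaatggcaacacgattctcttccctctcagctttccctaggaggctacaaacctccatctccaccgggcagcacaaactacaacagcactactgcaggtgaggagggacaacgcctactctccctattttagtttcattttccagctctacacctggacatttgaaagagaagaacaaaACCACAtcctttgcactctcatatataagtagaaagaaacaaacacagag
Gzmb: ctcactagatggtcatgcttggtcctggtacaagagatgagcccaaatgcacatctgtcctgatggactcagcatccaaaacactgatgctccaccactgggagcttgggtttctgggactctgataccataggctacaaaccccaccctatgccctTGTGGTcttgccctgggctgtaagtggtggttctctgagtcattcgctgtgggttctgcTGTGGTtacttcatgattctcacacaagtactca
Klrc1: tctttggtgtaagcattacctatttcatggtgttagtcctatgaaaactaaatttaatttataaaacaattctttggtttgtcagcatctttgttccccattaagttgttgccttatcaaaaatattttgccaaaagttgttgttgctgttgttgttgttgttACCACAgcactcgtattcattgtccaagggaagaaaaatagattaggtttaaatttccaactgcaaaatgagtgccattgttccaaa
Klrk1: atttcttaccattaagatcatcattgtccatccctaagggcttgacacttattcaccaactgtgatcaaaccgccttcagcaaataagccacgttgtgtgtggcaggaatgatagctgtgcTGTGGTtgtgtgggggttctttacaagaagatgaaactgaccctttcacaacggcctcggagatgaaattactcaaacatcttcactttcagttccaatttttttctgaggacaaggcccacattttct
Tnfrsf4: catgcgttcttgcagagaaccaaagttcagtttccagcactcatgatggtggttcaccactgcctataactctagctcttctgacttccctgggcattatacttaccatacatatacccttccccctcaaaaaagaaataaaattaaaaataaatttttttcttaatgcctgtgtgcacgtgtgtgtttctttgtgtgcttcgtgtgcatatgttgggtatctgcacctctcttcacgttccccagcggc

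The core began 50 bases before the start of Gzma, 93 and 34 before that of Gzmb, 87 before that of Klrc1 and 129 before that of Klrk1. The printed Tnfrsf4 stretch does not hold these letters. Over windows from 250 bases before to 50 after the start, on either strand, 7 of the 9 called higher genes with a RefSeq window held TGTGGT (Gzma, Gzmb, Klrc1, Klrc3, Klrk1, Cd160 and Dcaf4, but not Cd8a or Klra5) and 1 of the 7 called lower genes did (Izumo1r). All promoter windows held it at a share of 16.8%. This string was kept after its counts had been seen, out of 4 strings searched, and Klrc1 and Klrc3 are related copies. TGTGGTTT, which contains it, was in 3 of 9 and 0 of 7, TGCGGT in 2 of 9 and 0 of 7, and the T-box string AGGTGTGA in 0 of 9 and 0 of 7. These strings were in 1.78%, 6.45% and 1.28% of all windows, and 1.51%, 11.1% and 1.16% of the kidney genes with a window held them in any window. In the broader sets the 2 directions were close. TGTGGT was in 16.4% of the genes above and 15.8% of those below without overlap, beside 15.6% of all kidney genes with a window. Where the groups were at least 2 log2 units apart, the shares were 26.3% and 22.2%. The genes Cd4, Lrrc32, Cd7, Qpct, Cd244 and Cd8b1 had no window.

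Chemokine genes were split between the types. Of 15 measured (of 21 listed), 0 were called in either direction (4 higher and 6 lower at an unadjusted p below 0.05), and 4 were above and 9 below without overlap. The 4 above were the ligands typical of cytotoxic T cells. Ccl5 had levels of 42486 and 154152 against 504906 and 324888. Ccl4 had 12867 and 33428 against 97274 and 63519, Ccl3 had 3423 and 8393 against 19170.2 and 11627, and Xcl1, which attracts cross-presenting dendritic cells, had 511 and 1241 against 3152 and 1818. For all 4 genes CD4+ replicate 2 lay above replicate 1, and CD8+ replicate 1 was the highest library. Among the 9 below, Cxcl9, a ligand of CXCR3, had 114 and 69.7 against 20.4 and 12.3, Cxcl16, the ligand of CXCR6, had 162 and 88.5 against 24.6 and 26.2, and Ccl1, the ligand of CCR8, had 28.2 and 156 against 4.24 and 9.25. Their levels were low in all 4 kidney libraries, and macrophages, whose markers are given below, also make Cxcl9 and Cxcl16. Ifng, the type 1 effector cytokine, had 4545 and 5586 against 13296 and 9958, 2.30-fold by means (log2 difference 1.19 ± 0.35, adjusted p = 0.351).

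The costimulatory genes held the lower called gene with the smallest adjusted p. Of 22 measured TNF superfamily and CD28 family genes (of 25 listed), 0 were called higher and 2 lower, 2 were above and 11 below without overlap, and the median log2 difference was -1.02 (-1.33 and -0.68 against CD4+ replicates 1 and 2 alone). Tnfrsf4, the receptor OX40, had levels of 17913 and 22169 against 321 and 244, 71.0-fold higher in CD4+ cells by means (log2 difference -6.15 ± 0.34, adjusted p = 2.43e-04). Its neighbour on chromosome 4, Tnfrsf18 or GITR, had 9312 and 14174 against 3223 and 3334 and was not called (adjusted p = 0.121). In mm9 the genes span chr4:155387952-155390721 and chr4:155400273-155403004. In the CD8+ libraries Tnfrsf18 had 0.279 times its CD4+ mean level, and Tnfrsf4 0.0141 times.

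Tnfsf8, the ligand of CD30, had 724 and 900.1 against 28.0 and 23.1 (log2 difference -4.93 ± 0.41, adjusted p = 0.00378). Cd40lg, the ligand through which helper T cells license B cells and dendritic cells, had 2367 and 231 against 5.09 and 14.6. Its level in CD4+ replicate 1 was 10.2 times that in replicate 2, and although both exceeded the CD8+ pair, the gene was not called (adjusted p = 0.0763). Tnfsf11, or RANKL, had 311 and 122 against 0 and 14.6, Lta, or lymphotoxin alpha, had 613 and 598 against 137 and 193, and Icos had 8982 and 4424 against 2183 and 2843. These 3 genes had no overlap and were not called. Tnf ran the other way at 333 and 241 against 424 and 677, and Cd27 overlapped at 5567 and 1679.5 against 4539 and 5172.

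Regulatory T cell genes had the largest share of members below without overlap among the same 23 lists. Of 18 measured (of 19 listed), 0 were called higher and 4 lower, 0 were above and 15 below without overlap, and the median log2 difference was -2.98 (-3.41 and -2.36 against CD4+ replicates 1 and 2 alone). Foxp3, the factor that defines regulatory T cells, had levels of 1080.5 and 340.3 against 2.55 and 5.40 (log2 difference -7.00 ± 0.65, adjusted p = 0.00715). Izumo1r, the folate receptor relative FR4, had 5230.4 and 4728 against 205 and 133 (adjusted p = 0.00153), and Nrp1, a semaphorin receptor, had 795 and 499 against 56.0 and 50.1 (adjusted p = 0.0189). Lrrc32, or GARP, which holds latent TGF-beta on the surface, had 62.7 and 93.7 in CD4+ cells and no read in CD8+ cells, at least 62.1-fold lower in the latter (adjusted p = 0.0302). Foxp3 was 3.18 times as high in CD4+ replicate 1 as in replicate 2, whereas Lrrc32 was higher in replicate 2.

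Il2ra, or CD25, had 602 and 102 against 9.34 and 27.0, and Ctla4 had 6642 and 1704 against 1020.3 and 944. Both CD4+ libraries were above, replicate 1 by the wider margin, and neither gene was called. Capg, an actin-capping protein, had nearly equal CD4+ levels of 3583 and 3733 against 1280.0 and 1252 (adjusted p = 0.131). Gpr83, a G protein-coupled receptor of regulatory T cells, had 138 and 27.1 against 0 and 2.31. Tigit, on the same list, overlapped at 6449.8 and 1404 against 5605 and 5229, and its CD8+ levels were nearly as high as CD4+ replicate 1.

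Most helper cytokine genes had both CD8+ libraries below both CD4+ libraries. Of 12 measured (of 20 listed), 0 were called (1 higher and 9 lower at an unadjusted p below 0.05), 2 were above and 9 below without overlap, and the median log2 difference was -4.00 (-3.93 and -3.97 against CD4+ replicates 1 and 2 alone). Ebi3, a subunit shared by IL-27 and IL-35, had 128 and 111 in CD4+ cells and no read in CD8+ cells, at least 99.9-fold lower (adjusted p = 0.0554). Il10 had 1074 and 596 against 19.5 and 94.0, Il21 had 121 and 240.4 against 19.5 and 6.17, and Il17a had 128 and 113 against 14.4 and 1.54. Il2 had 53.6 and 64.5 against 0 and 2.31, with 3 reads in the CD8+ libraries and a ratio of 47.8 (95% exact interval 16.0 to 235), and Il4 had 16.2 and 22.9 with no read in CD8+ cells. In contrast to Cd40lg, the CD4+ replicates were within 2-fold of each other for each of these 6 cytokines. Ebi3, Il2 and Il4 reached a level of 10 in the CD4+ libraries only. The filter alone thus fixed their direction and lack of overlap, and the counts and median of the list include them.

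Follicular and peripheral helper genes (16 measured of 20 listed) had 0 calls, with 0 higher and 7 lower genes at an unadjusted p below 0.05 and 0 above and 9 below without overlap. For type 17 helper genes (12 of 18) the counts were 0 calls, 0 higher and 5 lower, and 1 above and 9 below. The median log2 difference of the follicular list was -2.04, but -2.40 against CD4+ replicate 1 alone and -0.94 against replicate 2 alone. That of the type 17 list was -1.83, with -1.37 and -1.47 against the single libraries. Beyond the lists, Il1r2, the decoy receptor for interleukin 1, had levels of 2991 and 615 against 46.7 and 11.6 and narrowly missed the threshold (adjusted p = 0.0518). Gpm6b, a membrane glycoprotein, had 629 and 199 against 0 and 13.1 (adjusted p = 0.085).

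Of the called genes outside these groups, Cd9, a tetraspanin, had levels of 1933 and 2035 against 301 and 258 (log2 difference -2.83 ± 0.31, adjusted p = 0.0115). Angptl2, a secreted angiopoietin-like protein, had 347 and 117 against 0.849 and 0, with 1 read in the CD8+ libraries and a ratio of 628 (95% exact interval 112 to 24855, adjusted p = 0.0234). Cd7, a surface protein of T and NK cells, had 672 and 1291 against 14874 and 9239 (adjusted p = 0.0145). The CD4+ replicates were close for Cd9, whereas replicate 1 was 2.98 times replicate 2 for Angptl2 and replicate 2 was 1.92 times replicate 1 for Cd7. Qpct, an enzyme that cyclises N-terminal glutamine, had 11.3 and 21.9 against 729 and 915 (49.6-fold by means, adjusted p = 0.0145). Dcaf4, a substrate receptor of a ubiquitin ligase, had 13.4 and 7.28 against 119.7 and 169 (adjusted p = 0.0332).

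Among 27 measured tissue residency and integrin genes (of 32 listed), Qpct was the 1 called, and 7 were above and 3 below without overlap. Cdh1, or E-cadherin, had levels of 57.1 and 45.8 against 421 and 326, Itga1, a collagen-binding integrin of resident T cells, had 20.4 and 10.4 against 144 and 87.1, and Litaf had 1188 and 647 against 3006 and 3393. Both CD8+ libraries were higher for these 3 genes, none of which was called. E-cadherin is also an epithelial gene. The summed level of distal nephron and collecting duct markers, 1142 and 9865 in CD4+ against 1989 and 4844 in CD8+ libraries, overlapped between the types. The part of epithelial transcripts in the Cdh1 difference was not tested.

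Several genes of resident and exhausted T cells overlapped between the types, with the CD4+ libraries far apart. Cxcr6, the receptor for the chemokine CXCL16, had 25829 and 1583 against 15249.6 and 17708. Itgae, or CD103, had 837 and 103 against 663 and 614, and Cd69, which retains T cells in tissue, had 11039 and 1494 against 7636 and 7084. In all 3, CD4+ replicate 1 was the highest library and replicate 2 the lowest. Pdcd1, or PD-1, had the same form, with 11103 and 579.6 against 5022 and 4567. Its log2 difference was -1.21 against replicate 1 and 3.04 against replicate 2. Havcr2, or TIM-3, had 386 and 127 against 425 and 334, with CD4+ replicate 1 between the CD8+ libraries, and Lck, the kinase bound to both coreceptors, had 24569 and 2813 against 9660.2 and 15559. For Cxcr6, Itgae, Cd69, Pdcd1, Lck and Havcr2 the difference changed sign with the choice of CD4+ library. The change was slight for Havcr2 on the side of replicate 1, at -0.036 beside 1.56 against replicate 2.

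Of 23 measured genes of inhibitory receptors and exhaustion (of 25 listed), 2 were called higher and 0 lower, and 5 were above and 5 below without overlap. The median log2 difference was 0.23 (-0.58 and 0.64 against CD4+ replicates 1 and 2 alone). Lag3 and Btla, both inhibitory receptors, were higher in both CD4+ libraries and were not called. Lag3 had 221 and 18.7 against 4.24 and 7.71, and Btla had 109 and 104 against 0 and 26.2. Ccr8, a chemokine receptor, had 1637 and 79.1 against 13.6 and 13.1. S1pr1, the receptor that guides T cells out of tissue, had 999 and 331 against 102 and 143, and Il7r had 1572 and 1299 against 536 and 903. Lag3, Btla, Ccr8, S1pr1 and Il7r had no overlap, and the CD4+ replicates were over 10 times apart for Lag3 and Ccr8.

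Ly6c1 and Ly6c2, closely related surface proteins whose reads may have been split by the counting, ran in opposite directions. Ly6c1 had levels of 235 and 229 against 32.3 and 35.5 (adjusted p = 0.058), and Ly6c2 had 1510.4 and 4784 against 32879 and 31811 (adjusted p = 0.0751). Neither was called, and neither overlapped.

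For most cytosolic ribosomal protein genes the CD8+ libraries lay between the kidney CD4+ libraries. Of 43 genes, all measured, 0 were called (2 higher and 0 lower at an unadjusted p below 0.05). Both CD8+ libraries were above CD4+ replicate 1 for 42 of them and below replicate 2 for 35. Rps14 had levels of 24715 and 78156 against 55039 and 52250.1, while Rps29, an exception, had 3300.0 and 6780.5 against 11400.3 and 9304, with both CD8+ libraries highest. For the invariant chains of the T cell receptor complex the CD8+ mean also lay between the CD4+ libraries, with Cd3g at 24538 and 48406 against 51538 and 42398 and Cd3d at 10077 and 26729 against 27376 and 23181. Of 27 measured cell cycle genes (of 30 listed), 0 were called, and 3 were above and 3 below without overlap. Their median log2 difference was -0.16 (-0.26 and 0.23 against CD4+ replicates 1 and 2 alone). Mki67, a proliferation marker, had 64.1 and 76.0 against 11.9 and 24.7. Mcm6 ran the other way at 61.3 and 130 against 172 and 240, and neither gene was called.

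**Figure D3:**
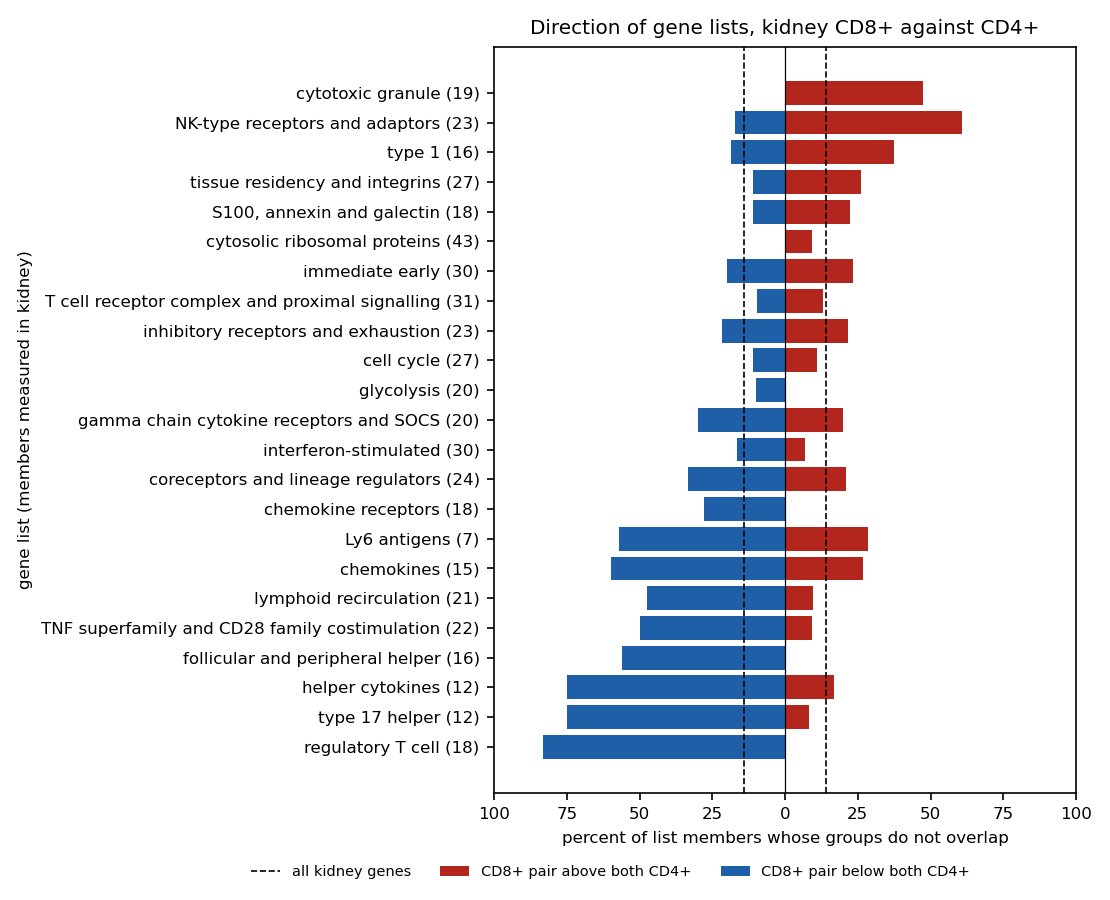
Percent of the measured members of each of the 23 gene lists other than markers of other cells whose CD8+ libraries both lay above (red, right) or below (blue, left) both CD4+ libraries, with the number measured in brackets and dashed lines at the share over all kidney genes. NK-type receptors and cytotoxic granule genes reach farthest to the right, and regulatory T cell, type 17 helper and helper cytokine genes farthest to the left, where the type 17 count fell from 9 to 6 of 12 with 2 of the 3 other scalings.

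The summed level of 6 of 11 marker lists of other cells was higher in both CD4+ than in both CD8+ libraries, most clearly for macrophage and class II markers. For the macrophage list (19 measured of 24 listed) the summed level was 28466 and 13027 in CD4+ against 9293 and 9095 in CD8+ libraries, and 0 genes were above and 15 below without overlap. For the dendritic cell and MHC class II list (8 measured of 15) it was 28123 and 16422 against 7168 and 4532, with 0 above and 6 below. In both lists 0 genes were called (11 and 3 were lower at an unadjusted p below 0.05). Csf1r, the macrophage growth factor receptor, had levels of 65.5 and 84.3 against 0.849 and 2.31, Adgre1, or F4/80, had 167 and 29.1 against 1.70 and 4.63, and C1qb, a complement subunit, had 2036 and 2256 against 429 and 356. H2-Aa, a class II chain, had 7394 and 7219.6 against 2041 and 1213 (adjusted p = 0.0705). These markers moved with the genes that were higher in CD4+ cells, and their part in those differences was not tested. Cd9 and Nrp1 are also made by macrophages.

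Kidney epithelial markers did not follow the cell type. The proximal tubule list (23 measured of 25) summed to 12948 and 25876 in CD4+ against 8985 and 32950 in CD8+ libraries, with 1 gene above and 0 below. Miox, a proximal tubule enzyme, had levels of 1281 and 5964 against 1252 and 3247, and Fxyd2, a sodium pump subunit, had 959 and 9501 against 1721 and 4549. Replicate 2 of both cell types was the higher library of its pair for both genes. Neutrophil markers summed to 62.0 and 12.5 against 0.849 and 12.3, with 6 of 15 at 0 in all 4 libraries, and B cell markers to 182 and 220 against 247 and 233. Erythroid and platelet markers summed to 57.1 and 505 against 13.6 and 196, and those of mast cells, basophils and innate lymphoid cells to 125 and 101 against 219 and 110. The neutrophil sum was higher in both CD4+ libraries only by the smallest of margins, the B cell sum was higher in both CD8+ libraries, and the other two overlapped.

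The 3 further lists with higher sums in both CD4+ libraries were those of gamma delta and innate-like T cells, plasma cells, and podocytes, endothelium and stroma. For gamma delta and innate-like T cells (3 measured of 15) the sums were 1737 and 1086 against 345 and 232, most of it Maf. For plasma cells (5 of 10) they were 1164 and 871 against 806 and 701, with 1 gene above and 2 below, and for podocytes, endothelium and stroma (2 of 20) 93.7 and 112 against 18.7 and 65.5, with 0 above and 1 below.

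**Figure D4:**
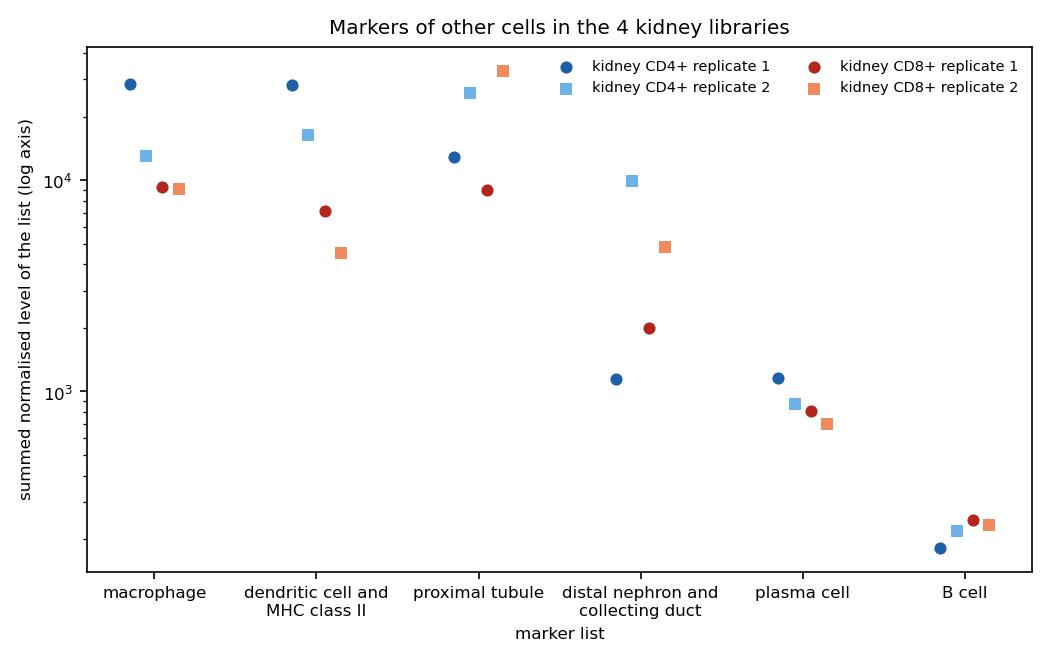
Summed normalised level (log axis) of marker lists of other cell types in the 4 kidney libraries. Macrophage, class II and, by a small margin, plasma cell sums are higher in both CD4+ libraries than in both CD8+ libraries, while the proximal tubule and distal nephron sums of the types overlap.

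The spleen libraries give the same contrast in other samples of the same strain and age, with no library in common. The fit gives each gene 1 spread over kidney and spleen libraries, so the calls of the organs are not independent of each other. All 22 called kidney genes had the same direction of difference in spleen, 21 of them without overlap, and 15 were also called there (7 higher and 8 lower), beside 0.387% of all kidney genes called in spleen. The exception to the separation was Dcaf4, with spleen levels of 216 and 152 in CD4+ against 204 and 284 in CD8+ cells. Of the 1419 genes above without overlap in kidney, 437 were also above in spleen, which is 30.8% of the kidney genes, beside a background of 20.0% of all genes above in spleen. The same 437 are 21.7% of the 2016 spleen genes, beside 14.1% of all genes above in kidney. Of the 1417 below, 594 were also below in spleen, 41.9% of the kidney genes beside 25.4% of all genes, and 23.2% of the 2556 spleen genes beside 14.1% of all genes. Genes that separated in opposite directions numbered 248 and 149.

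Whether the cell type difference itself differed between the organs was tested as an interaction. In limma 0 genes passed in either direction (0.0% of 10080, smallest adjusted p 0.999). At an unadjusted p below 0.05, 209 genes had a larger and 110 a smaller CD8+ minus CD4+ difference in kidney. edgeR also called 0 genes, and DESeq2 called 12 (7 larger and 5 smaller). Without kidney CD4+ replicate 1 limma called 670 larger and 101 smaller differences, and without replicate 2 it called 6 and 4. Several called genes had unequal fitted differences that did not pass this test. Gzmb had spleen levels of 2356 and 3248 against 7274 and 7190.4, a log2 difference of 1.39 ± 0.34 in spleen beside 3.25 ± 0.34 in kidney (interaction adjusted p = 0.999). Tnfsf8 had 601 and 504 against 123 and 208 in spleen, -1.77 ± 0.41 beside -4.93 ± 0.41 in kidney (interaction adjusted p = 0.999). Qpct had 7.76 and 21.6 against 25.6 and 42.0 in spleen, below its kidney CD8+ levels in every spleen library (interaction adjusted p = 0.999).

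Other genes had close differences in both organs. Gzma had spleen levels of 222 and 326 against 7914 and 7445 (log2 difference 4.83 ± 0.48), Klrc1 had 157 and 189.8 against 2201 and 2276 (3.69 ± 0.38), and Foxp3 had 1665 and 1009 against 10.8 and 11.5 (-6.74 ± 0.65). Tnfrsf4 had 9376 and 10354 against 62.6 and 81.2 (-7.09 ± 0.34). Each fitted difference lay within 1 log2 unit of that in kidney. Among genes not called in kidney, Il17a had no read in any spleen library, Itga1 had 0 and 0 in spleen CD4+ against 3.37 and 11.5 in spleen CD8+ cells, and Cdh1 had 11.6 and 6.04 against 10.8 and 3.82. Pdcd1, which overlapped in kidney, separated in spleen at 2542 and 2205 in CD4+ against 906 and 1011 in CD8+ cells.

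**Figure D5:**
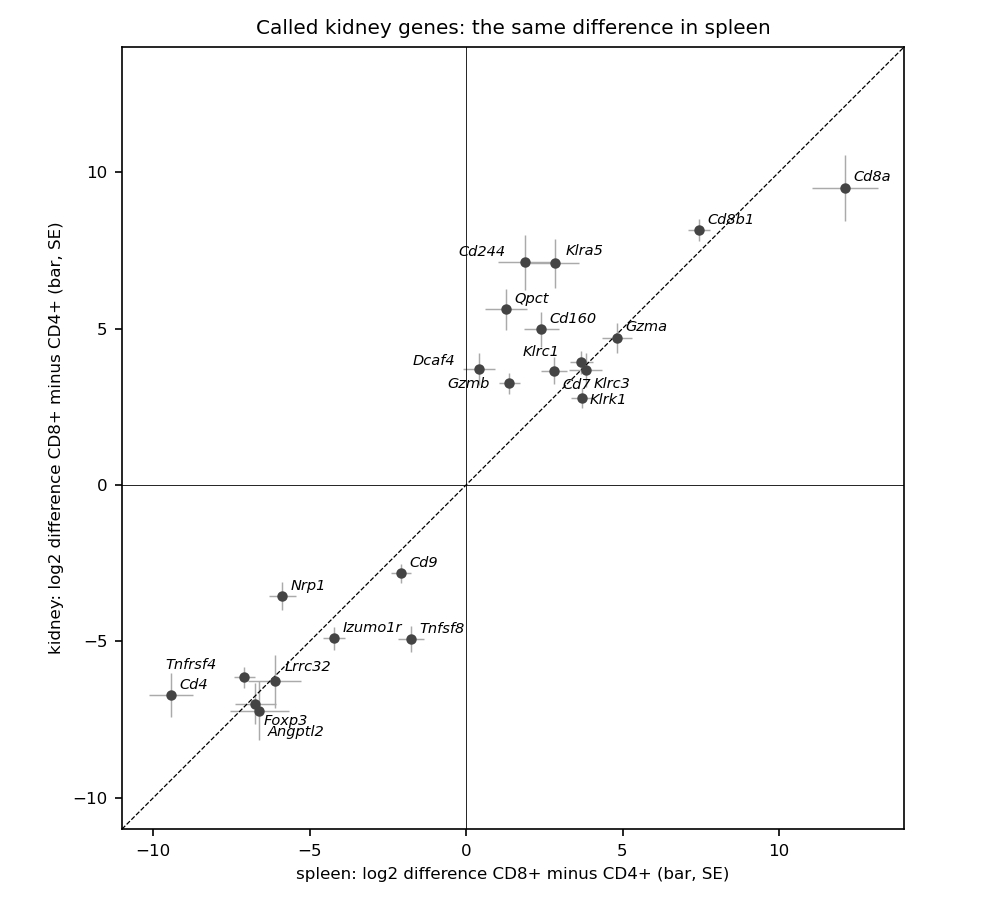
Fitted log2 difference CD8+ minus CD4+ in kidney (vertical) against spleen (horizontal) for the 22 called kidney genes, with bars for the SE and a dashed line of equality. All points share their sign in both organs, and Qpct, Cd244, Klra5 and Dcaf4 lie farthest above the line.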

How the data were processed

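RNA-seq was made from CD44-high CD4+ and CD8+ T cells of kidney and spleen of MRL/lpr mice, with RNA from a Qiagen RNeasy Plus Micro kit and SMART-Seq v4 libraries, which keep neither strand nor molecular identifiers, per the labels' protocols. Alignment was to mm9, as the labels state. The submitters' processing notes list STAR 2.5.3 and TopHat2 2.1.0. The sources used here do not give the aligner behind the values, the counting tool, the annotation or the way of normalisation. Normalised signal is what the authors deposited, in 1 table of 13341 genes and 8 libraries, with 0 columns unused. Within each library the deposited signal was a whole multiple of 1 step for 100% of values (tolerance 1e-06), so dividing by that step recovered whole reads, 7477544 to 11169003 per library.

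Differences between groups of log2(level + 1) were fitted in R 4.3.3 using limma 3.58.1 (4 group means over 8 libraries, empirical Bayes with a trend, 2-sided). Benjamini-Hochberg adjustment ran over 10845 genes whose level reached 10 or more in 2 or more of the 8 libraries, and counts are over the 10080 kidney genes. Differences are on this log2 scale, which understates the change of low genes. Each adjusted p given comes from this limma fit unless another tool is named. Alternatives were other scalings, pseudocounts and filters, edgeR 4.0.16 and DESeq2 1.42.0 on the recovered reads, library weights, a replicate block, each library left out, and the kidney libraries alone. Gene positions are from GENCODE vM1 on mm9. The fit was also run on simulated reads. These had the same dispersion in every group, so they could not show the effect of the unlike kidney CD4+ libraries.

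Named genes were up to 12 per direction with the largest called difference, up to 10 per direction with the widest separation, both with a mean level of at least 100 in the higher group, members of 34 gene lists (up to 6 with the widest separation and the 4 highest), and a fixed set. Klrk1 and Ncr1 were added after their values were seen. The comparison, its lists and its named genes were chosen with earlier results of these data known. Genes with close copies, such as Klra, Klrc, granzyme and Ly6c genes, may share reads, 282 genes held the same values as another gene in every library, and overlapping genes on opposite strands cannot be told apart.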

Additional observations from a re-analysis of the deposited data

How the results depend on the processing

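Limits came first from replication: with 2 libraries a group, and kidney CD4+ libraries this unlike, calls rest on a spread borrowed from the other groups. All 22 calls kept their direction in every alternative run, 2 of which held no spread between kidney CD4+ libraries. In the runs that left out libraries this was fixed in advance, as the kidney groups of these genes did not overlap. Cd8b1 and Tnfrsf4 kept their call in all 21 alternatives, and the other genes in 10 to 20. The counts of higher and lower genes, 13 and 9, became 25 and 24 with a pseudocount of 10, 87 and 115 with DESeq2, 7 and 5 with library weights, and 1 and 2 with the kidney libraries alone, and the lower count was 23 after quantile normalization. Leaving out 1 library gave 1 to 1005 higher and 2 to 652 lower genes, with the high ends from leaving out a kidney CD4+ library. The kidney against spleen interaction, 0 and 0, became 7 larger and 5 smaller with DESeq2, and leaving out 1 library gave 0 to 670 larger and 0 to 101 smaller. In alternatives chosen after seeing the data, the counts without overlap, 1419 above and 1417 below, were 4126 and 3364 against kidney CD4+ replicate 2 alone and 3455 and 4521 against replicate 1 alone. The 3 other scalings moved the median of all genes to at most 0.05, and of the list counts that were 5 or more before or after, those of T cell receptor genes went from 4 to 9 above and from 3 to 5 below, type 17 helper genes from 9 to 6 below, and inhibitory receptors from 5 to 8 below, each with at least 1 of these scalings. No other such count of the 23 lists moved by 1.5 times or more. A fit with a replicate block gave 10 higher and 8 lower genes (4 of the 22 calls were lost). Over all tested genes same-numbered libraries deviated together very little (correlations 0.00784 to 0.0559), so the numbers were not taken as pairs. Miox, Fxyd2 and the summed proximal tubule and erythroid markers were nevertheless higher in replicate 2 of both kidney cell types. Whether same-numbered libraries share a source was not tested. Some uncalled genes changed sign. With edgeR the log2 difference was -0.021 for Lck and -0.17 for Pdcd1, and with DESeq2 -0.12 for Pdcd1 and -0.015 for Rps14. Over the fits that left out 1 library each, it ran from -0.20 to 1.53 for Cd27, from -0.085 to 1.32 for Cd3d, from -0.050 to 0.93 for Cd3g, from -0.59 to 2.30 for Cd69, from -0.65 to 3.38 for Cxcr6, from -0.10 to 2.96 for Fasl, from -1.76 to 1.54 for Fxyd2, from -0.036 to 1.56 for Havcr2, from -0.39 to 2.62 for Itgae, from -1.003 to 2.12 for Lck, from -1.56 to 0.65 for Miox, from -4.49 to 2.34 for Ncr1, from -1.21 to 3.04 for Pdcd1, from -0.54 to 1.12 for Rps14, from -0.19 to 0.30 for Runx3, from -0.88 to 0.055 for Srgn and from -0.25 to 1.95 for Tigit. The cause of these changes was not tested.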
